A study of Homo sapiens with 6 samples.

Results

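The genes described here encode ribonucleotide reductase and enzymes that make or salvage pyrimidine nucleotides. They were chosen by name as RRM1, RRM2, RRM2B, CAD, DHODH, UMPS, TK1, DCK, CTPS1 and DTYMK, and all 10 were found among the 58735 genes of the deposited expression table. All 10 also passed the filter on low values, a mean of at least 1 FPKM (fragments scaled to gene length and library size), which 13150 genes passed. They were measured by RNA sequencing in PC9-BrM3, a subline of the human lung cancer line PC9 with a high rate of metastasis to the brain, taken from brain metastases in immunodeficient mice after injection into the left ventricle. The BrM3-shAKR1B10 group, labelled AKR1B10 knockdown, carried a lentiviral short hairpin RNA against AKR1B10, an aldo-keto reductase, and the BrM3-shNC group, labelled WT, carried a negative control hairpin from the same vector system. Each group had 3 libraries of untreated cells in routine culture, in RPMI1640 with serum. The study's legends name 1 hairpin construct for BrM3-shAKR1B10, so the loss of AKR1B10 and other effects of that hairpin cannot be told apart.

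Ribonucleotide reductase removes an oxygen from ribonucleoside diphosphates and so makes the building blocks of DNA. Its catalytic subunit, RRM1, works with a small subunit that carries the radical, either RRM2, which is made mainly in S phase and destroyed late in the cycle, or RRM2B, which is induced by p53 and serves DNA repair and mitochondrial DNA in cells outside S phase. Pyrimidines are built by CAD, which carries the first steps in the cytosol, by DHODH on the inner mitochondrial membrane and by UMPS, which yields UMP. CTPS1 turns UTP into CTP. TK1 and DCK phosphorylate salvaged deoxynucleosides, TK1 mainly in cycling cells, and DTYMK adds the next phosphate to dTMP on the way to dTTP.

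A set of 4 motifs known from promoters of growth and cell cycle genes was searched on both strands in the 250 bases before each RefSeq transcription start. They were CCAAT (bound by NF-Y), TTTGAA (CHR, an element of late cell cycle genes), CACGTG (E-box) and an E2F motif given as TTTCCCGC, TTTGGCGC, TTTCGCGC or TTTGCCGC. No match overlapped another. RefSeq (GRCh38.p14) listed 12 such windows for 9 of the 10 genes. CCAAT was found before a start of all 4 genes that were called lower below (RRM1, RRM2, TK1 and DTYMK) and of 2 of the other 5 with a window, CAD and DHODH. In the same search over the 27305 genes with a window, counted in the same way per gene, 37.0% had a window with at least 1 CCAAT, 11.5% one with at least 2 and 3.55% one with at least 3. The motifs were chosen after the sequences had been read, so the counts set beside these shares are not a test. Of the 9 matches in the 4 genes, 8 are printed, because these genes changed most and because the RRM2 sites shown repeat each other. The other match, in RRM2, lay 249 bases before the upstream start, at the edge of its window, and is not printed. Each line gives 30 bases on the gene's strand, 5′ to 3′, with CCAAT, or ATTGG where the motif lies on the opposite strand, in capitals.

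RRM2 site 1, chr2:10122604-10122633: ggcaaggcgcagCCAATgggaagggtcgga
RRM2 site 2, chr2:10122634-10122663: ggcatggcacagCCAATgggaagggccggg
RRM2 site 3, chr2:10122661-10122690: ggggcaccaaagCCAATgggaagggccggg
TK1 site 1, chr17:78187112-78187141: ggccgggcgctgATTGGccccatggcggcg
TK1 site 2, chr17:78187081-78187110: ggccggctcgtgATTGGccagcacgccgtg
DTYMK site 1, chr2:241686890-241686919: ccccggccccggCCAATcccttcgaatttg
DTYMK site 2, chr2:241686822-241686851: tgttgacgccggCCAATgggagctccggaa
RRM1 site 1, chr11:4094645-4094674: gcatgtccatatCCAATggggcccatggga

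RRM2 and RRM1 lie on the plus strand, TK1 and DTYMK on the minus strand. The RRM2 sites printed began 123, 93 and 66 bases before the downstream RRM2 start at position 10122739, 30 and 27 bases apart. These sites shared a run of 15 bases, AGCCAATGGGAAGGG, and sites 2 and 3 shared 20 bases, while the match before the upstream start was not compared with them. The first of them begins in an untranslated region, and the others in coding sequence, of a longer RRM2 transcript in GENCODE 29. The TK1 sites lay 77 and 46 bases before the downstream TK1 start at 78187052, and the DTYMK sites 92 and 24 bases before the start at 241686815. These 4 sites fall in untranslated sequence of longer GENCODE 29 transcripts. The RRM1 site, 28 bases before the start at 4094685, lay in no annotated exon of RRM1. No window of the 9 genes held the E2F letters, which 3.399% of all genes had in a window. CHR, searched as TTTGAA only, was found in RRM1 (1 match) and UMPS (2 matches), against 16.1% of all genes with at least 1. An E-box was found in DHODH and DCK (1 match each), against 7.73% of all genes. A match describes the sequence only, and no factor's binding was measured in these samples.

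**Figure D1:**
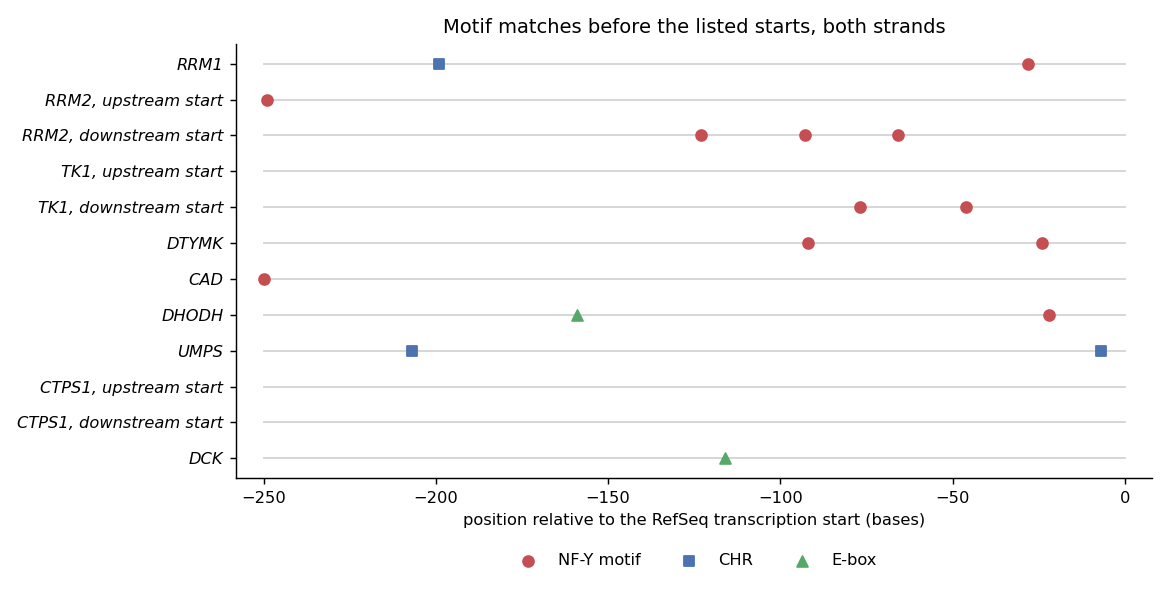
Motif matches on both strands in the 250 bases before the 12 RefSeq starts listed for 9 of the genes (x axis, bases relative to the start; each grey line is 1 window). Circles mark the NF-Y motif, squares CHR and triangles E-box matches. The downstream RRM2 start has 3 NF-Y motifs within 123 bases, and the downstream TK1 start and the DTYMK start have 2 each.

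AKR1B10 itself checked the labels. It stood at 108, 107 and 110 FPKM in the BrM3-shAKR1B10 libraries and at 799, 775 and 772 FPKM in the BrM3-shNC libraries, a log2 fold change of -2.85 (SE 0.030, limma adjusted p = 1.6e-07). The libraries held 16964504 to 18709028 reads on genes. The library sizes that the FPKM values imply were 16911164 to 18350584, above the reads on genes in all 3 silenced and below them in all 3 control libraries. With these sizes, a count of 3 on 1000 bases of gene length equals 0.163 to 0.177 FPKM, a floor that covers counting error only. The 7 lung epithelial markers summed to 3248 to 3332 FPKM in the silenced and 3075 to 3433 FPKM in the control libraries, and none was called. The 5 immune markers summed to at most 1.36 FPKM (LYZ at 0) and the 5 brain markers to at most 0.286 FPKM in any library. The 6 fibroblast markers summed to 1.20 to 1.37 FPKM in silenced and 2.03 to 2.08 FPKM in control libraries, with 3 at 0, and the only one tested, COL1A1, was called lower (log2 fold change -0.67, limma adjusted p = 0.0032). The 4 endothelial markers summed to 2.10 to 2.37 FPKM and 1.52 to 1.79 FPKM, with KDR at 0, and the only one tested, CDH5, was called higher (log2 fold change 0.65, limma adjusted p = 0.0039). These marker genes were named after their values were seen, and their part in the results was not tested. The methods speak of independent experiments for quantitative data in general, but no label says that the 3 libraries of a group came from separate cultures, so p-values measure the spread between these libraries, which may be technical.

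Silencing of AKR1B10 went with lower levels of both main subunits of ribonucleotide reductase and of the kinases TK1 and DTYMK, while none of the enzymes of de novo UMP synthesis was called. Of the 10 genes, 4 were called lower (adjusted p under 0.05 and log2 fold change under -0.5), namely RRM1, RRM2, TK1 and DTYMK, and 0 were called higher. Among all genes tested, 7.45% were called lower and 5.83% higher (980 and 766 genes). The counts were 980 and 763 with median-of-ratios scaling and 976 and 761 with quantile normalization. Median-of-ratios scaling hardly changed the FPKM (RRM2 log2 fold change -0.880104 before and -0.880074 after), so its counts are not a separate check. More genes were called higher than lower as TPM (1012 lower, 1138 higher) and by voom on the recovered reads (851 lower, 984 higher), which changes the model as well. The same 4 of the 10 genes were called lower in each of these. By adjusted p alone, 7 of the 10 fell and 1 rose, against 23.1% of all genes lower and 19.4% higher. The silenced libraries all lay below all control libraries for 8 genes and above them for 1, against 29.2% and 25.5% of all genes. The median log2 fold change of the 10 genes was -0.34, and that of all genes tested was -0.01. In bulk samples, a smaller share of cells that express a gene and less RNA per cell cannot be told apart.

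**Figure D2:**
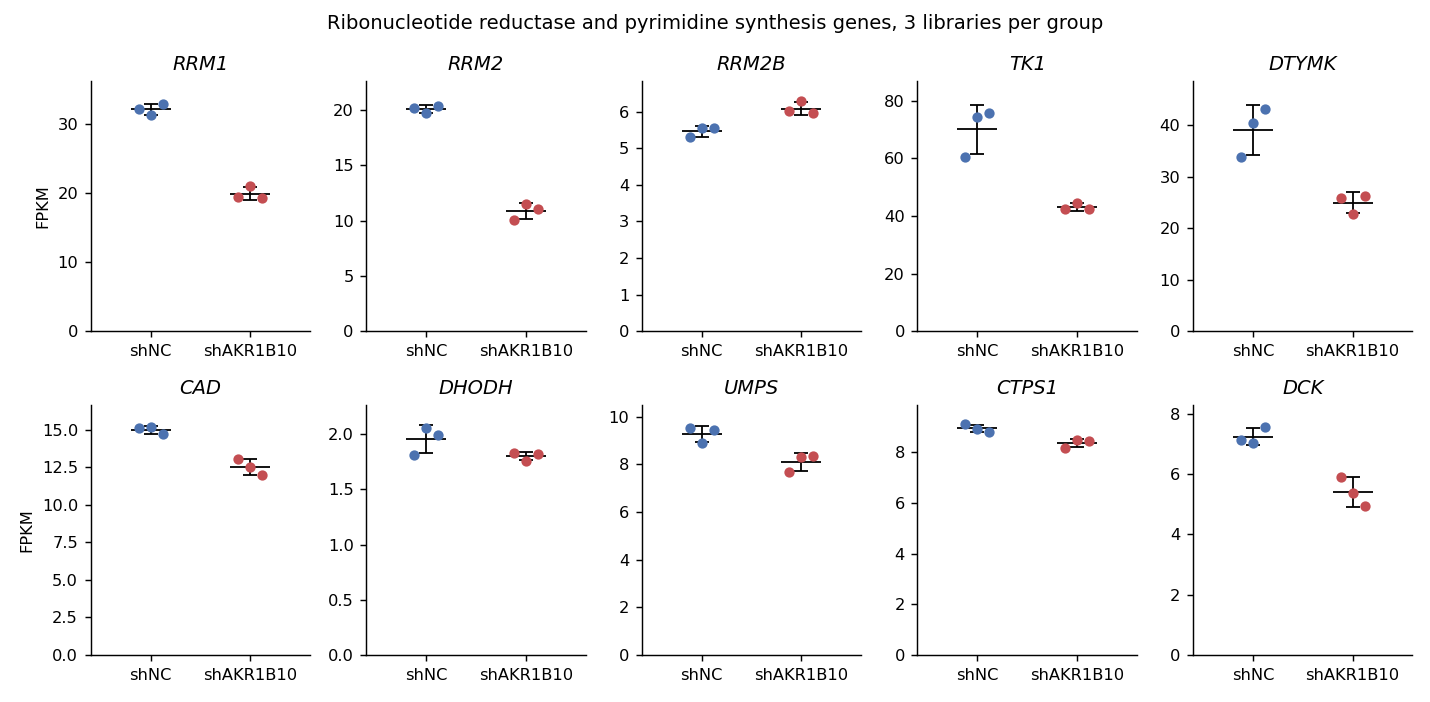
FPKM of the 10 genes in each library (points; 3 BrM3-shNC libraries in blue and 3 BrM3-shAKR1B10 libraries in red), with the group mean and SD (horizontal line and bars); each panel starts at 0. The groups overlap only for DHODH, and the silenced libraries are the higher ones only for RRM2B.

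RRM1 (ENSG00000167325, chromosome 11, 4094707 to 4138876), the catalytic subunit, was at 19.4, 21.1 and 19.4 FPKM in the silenced libraries and at 32.2, 31.4 and 32.9 FPKM in the controls. All silenced libraries were lower, with a mean of 20.0 ± 0.965 against 32.2 ± 0.736 FPKM (SD, n = 3 each), or 37.98% below the control. The log2 fold change was -0.69 (SE 0.044, limma adjusted p = 7.3e-05). The table also lists an antisense gene, RRM1-AS1, with 0 reads in every library.

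RRM2 (ENSG00000171848, chromosome 2, 10120698 to 10131419), the S phase small subunit, was at 10.1, 11.5 and 11.02 FPKM in the silenced libraries and at 20.2, 19.7 and 20.3 FPKM in the controls. The groups did not overlap, and RRM2 showed the largest change of the 10 genes. Its mean was 10.9 ± 0.730 against 20.1 ± 0.337 FPKM (SD, n = 3 each), 45.8% below the control, with a log2 fold change of -0.88 (SE 0.054, limma adjusted p = 6.4e-05). Only 2.56% of all genes tested had a lower log2 fold change. The pseudogene RRM2P3 had 3 reads over all 6 libraries, and RRM2P2 and RRM2P4 had 0. AC007240.1, which overlaps RRM2 on the same strand, had 15 to 42 reads per library, against 949 to 1975 for RRM2.

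RRM2B, the p53-inducible small subunit (ENSG00000048392, chromosome 8, 102204502 to 102239118), moved the other way by a small amount. It was at 6.01, 6.28 and 5.96 FPKM in the silenced libraries and at 5.29, 5.54 and 5.56 FPKM in the controls. The lowest silenced library was above the highest control. The means were 6.08 ± 0.174 and 5.47 ± 0.149 FPKM (SD, n = 3 each), and the log2 fold change was 0.15 (SE 0.046, 95% interval 0.04 to 0.26, limma adjusted p = 0.036). This was below the fold threshold for a call, and the limma adjusted p rose to between 0.061 and 0.11 when any 1 of the 6 libraries was left out.

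Within a library, the paralogues and subunits can be compared without any scaling between libraries. RRM2B supplied 37.3%, 35.3% and 35.1% of the small-subunit FPKM (RRM2 and RRM2B together) in the silenced libraries and 20.8%, 21.96% and 21.5% in the controls. The share was thus 35.9 ± 1.24% against 21.4 ± 0.604% (SD, n = 3 each), a difference of 14.5 percentage points. The exact two-sided permutation p was 0.1, the smallest that 3 against 3 libraries allow, and the same holds for each ratio below. The ratio of RRM2 to RRM1 FPKM was 0.519, 0.547 and 0.569 in the silenced and 0.628, 0.626 and 0.618 in the control libraries. RRM2 was thus lower relative to its catalytic partner in all 3 silenced libraries, at 0.545 ± 0.0248 against 0.624 ± 0.0055 (SD, n = 3 each, exact permutation p = 0.1). With RRM2B added to RRM2, a ratio computed after the values were seen, the small subunits together stood at 0.850 ± 0.0242 per RRM1 in the silenced and 0.794 ± 0.0081 in the control libraries (SD, n = 3 each, exact permutation p = 0.1). The difference had one sign for RRM2 alone and the other for both small subunits together.

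**Figure D3:**
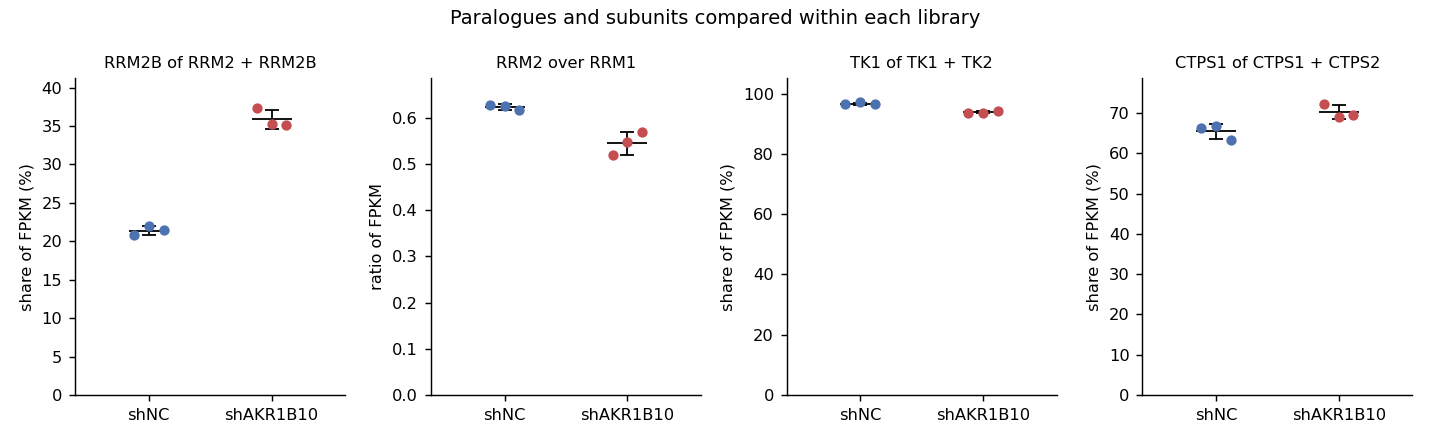
FPKM shares and ratios computed within each library (points; BrM3-shNC in blue, BrM3-shAKR1B10 in red), with mean and SD; all axes start at 0. The RRM2B share lies between 35.1% and 37.3% in the silenced libraries and between 20.8% and 21.96% in the controls, and in each of the other panels too the groups do not overlap.

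TK1 (ENSG00000167900, chromosome 17, 78174075 to 78187233), the cytosolic thymidine kinase of cycling cells, had the highest FPKM of the 10 genes. It was at 42.4, 44.6 and 42.3 FPKM in the silenced libraries and at 60.4, 74.3 and 75.8 FPKM in the controls. Control replicate 1 was the lowest control and still above every silenced library. The means were 43.1 ± 1.33 and 70.2 ± 8.44 FPKM (SD, n = 3 each), 38.5% below the control, with a log2 fold change of -0.69 (SE 0.087, limma adjusted p = 0.0011).

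TK2, the mitochondrial thymidine kinase, was at 2.82 ± 0.241 FPKM in the silenced and 2.40 ± 0.265 FPKM in the control libraries (SD, n = 3 each). Its groups overlapped, and its log2 fold change was 0.23 (95% interval -0.03 to 0.48, limma adjusted p = 0.13). TK1 made up 93.7%, 93.6% and 94.3% of the FPKM of both kinases in the silenced libraries and 96.4%, 97.1% and 96.6% in the controls, a difference of -2.81 percentage points (exact permutation p = 0.1, n = 3 each). On reads without length correction the difference in this share was -8.42 percentage points.

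DTYMK (ENSG00000168393, chromosome 2, 241675742 to 241686991), thymidylate kinase, was at 25.9, 22.7 and 26.3 FPKM in the silenced libraries and at 33.8, 40.3 and 43.2 FPKM in the controls. The groups did not overlap, and control replicate 1 was again the lowest control. The means were 24.96 ± 1.998 and 39.1 ± 4.81 FPKM (SD, n = 3 each), 36.2% below the control, with a log2 fold change of -0.64 (SE 0.101, limma adjusted p = 0.0029). DTYMK and TK1 also had the widest intervals of the called genes, -0.88 to -0.40 and -0.90 to -0.49 on the log2 scale.

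Of the de novo enzymes, CAD and UMPS passed the test but not the fold threshold, and DHODH did not pass the test. CAD (ENSG00000084774, chromosome 2, 27217390 to 27243943) was at 13.04, 12.5 and 11.98 FPKM in the silenced libraries and at 15.1, 15.2 and 14.7 FPKM in the controls. The groups did not overlap, and the log2 fold change was -0.26 (SE 0.042, 95% interval -0.36 to -0.16, limma adjusted p = 0.0033). The interval of CAD therefore does not reach the threshold of -0.5.

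UMPS (ENSG00000114491, chromosome 3, 124730366 to 124749273) was at 7.68, 8.32 and 8.36 FPKM in the silenced libraries and at 9.52, 8.89 and 9.45 FPKM in the controls. The groups were separated only by the gap from 8.36 to 8.89 FPKM, and the log2 fold change was -0.19 (SE 0.051, 95% interval -0.32 to -0.07, limma adjusted p = 0.023). The limma adjusted p was 0.064 without silenced replicate 1, 0.062 without control replicate 1 and 0.069 without control replicate 3. The genes that overlap UMPS, MIR544B and AC022336.1, had at most 1 and 3 reads in a library.

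DHODH (ENSG00000102967, chromosome 16, 72008588 to 72027664), the only mitochondrial enzyme of the de novo route, was the least abundant of the 10 genes, with 220 to 252 reads per library. It was at 1.83, 1.76 and 1.82 FPKM in the silenced libraries and at 1.81, 2.06 and 1.995 FPKM in the controls. The groups overlapped through control replicate 1, and no difference was detected (log2 fold change -0.11, 95% interval -0.33 to 0.11, limma adjusted p = 0.37). A fall of up to 0.33 on the log2 scale lies within that interval.

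CTPS1 (ENSG00000171793, chromosome 1, 40979335 to 41012565), CTP synthase 1, was at 8.18, 8.49 and 8.44 FPKM in the silenced libraries and at 9.11, 8.92 and 8.82 FPKM in the controls. The silenced libraries were all lower, but the difference did not pass the test (log2 fold change -0.10, 95% interval -0.18 to -0.01, limma adjusted p = 0.082). Its paralogue CTPS2 was at 3.12, 3.80 and 3.69 FPKM in the silenced and 4.62, 4.44 and 5.08 FPKM in the control libraries, a log2 fold change of -0.41 (SE 0.091, limma adjusted p = 0.012). CTPS1 made up 72.4%, 69.1% and 69.6% of the FPKM of both synthases in the silenced libraries and 66.4%, 66.8% and 63.4% in the controls, a difference of 4.82 percentage points (exact permutation p = 0.1, n = 3 each).

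DCK (ENSG00000156136, chromosome 4, 70992538 to 71030914), deoxycytidine kinase, which also activates cytidine analogue drugs, was at 5.91, 5.39 and 4.93 FPKM in the silenced libraries and at 7.14, 7.02 and 7.56 FPKM in the controls. The groups did not overlap. The log2 fold change of -0.42 (SE 0.073, limma adjusted p = 0.0045) passed the test but not the fold threshold, and its interval, -0.59 to -0.24, reached past that threshold. MOB1B overlaps DCK on the same strand and had 368 to 464 reads per library, against 282 to 445 for DCK, with a log2 fold change of -0.10. The sources used here do not say how reads on both genes were counted, so the level of DCK is uncertain to that extent.

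**Figure D4:**
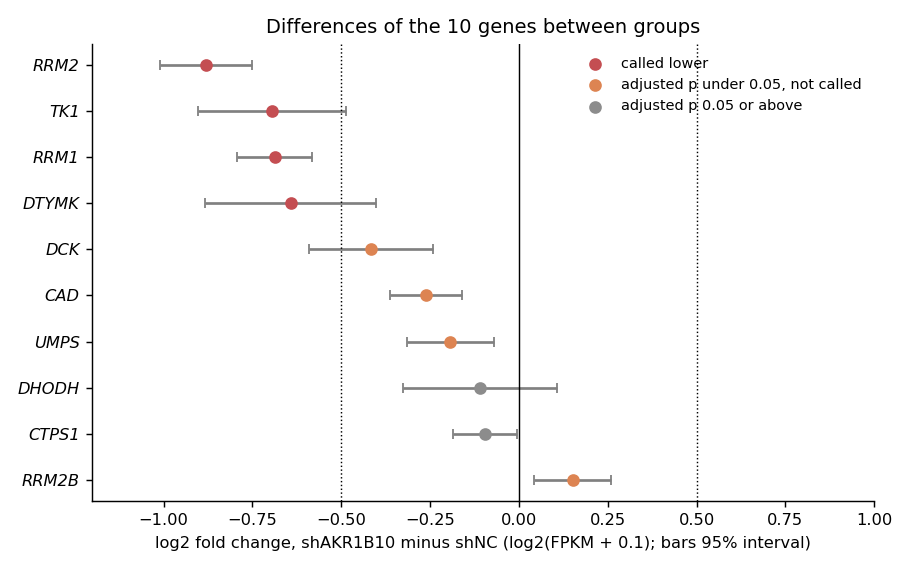
Log2 fold change of each gene on the log2(FPKM + 0.1) scale (points; negative is lower in BrM3-shAKR1B10) with its 95% interval from the limma fit (bars). Dotted lines mark the fold threshold of 0.5 in each direction; RRM2, TK1, RRM1 and DTYMK lie below -0.5, and RRM2B is the only gene above 0.

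By level per length, the control libraries ranked the genes as TK1, DTYMK, RRM1, RRM2, CAD, UMPS, CTPS1, DCK, RRM2B and DHODH. Neighbours in that order did not overlap between libraries, apart from UMPS and CTPS1. In the silenced libraries CAD (11.98 to 13.04 FPKM) stood above RRM2 (10.1 to 11.5 FPKM), and RRM2B (5.96 to 6.28 FPKM) stood above DCK (4.93 to 5.91 FPKM), both the reverse of the control order.

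The other genes of the pathway were taken as 6 lists, of UMP and CTP supply, thymidylate supply, nucleoside salvage, breakdown, electron donors of the reductase and nucleoside transporters. Of their 51 genes, 43 were tested, and 5 were called lower (11.6%) and 4 higher (9.30%). Their median log2 fold change was -0.03, close to the -0.01 of all genes. The list medians ran from -0.32 in thymidylate supply to 0.09 in the electron donors, and differences between the lists were not tested.

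In thymidylate supply, 2 of the 6 tested genes were called lower and 0 higher, with a median of -0.32. TYMS, thymidylate synthase, was at 7.68, 6.997 and 7.19 FPKM in the silenced libraries and at 11.8, 14.8 and 15.1 FPKM in the controls, a log2 fold change of -0.91 (SE 0.097, limma adjusted p = 0.00057). TYMS, TK1 and DTYMK, which make and phosphorylate dTMP, were thus all called lower. Of the overlapping genes on the other strand, ENOSF1 (441 to 671 reads per library) had a log2 fold change of 0.42. TYMSOS (18 to 43 reads) had one of -0.63, and the difference between these genes was not tested. CMPK2 was listed at 0 in every library.

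Among 7 genes of UMP and CTP supply, 1 was called lower and 1 higher, with a median of 0.01. Both are nucleoside diphosphate kinases. NME1 fell (log2 fold change -0.52, limma adjusted p = 0.0028) and NME3 rose (log2 fold change 0.66, limma adjusted p = 0.0044). The gene NME1-NME2 overlaps NME1 on the same strand and had 0 to 5 reads per library. How reads on both were counted is not given, so the level of NME1 is uncertain to that extent. None of 9 tested salvage genes was called in either direction (median -0.06). Of 10 tested breakdown genes, 1 was called higher, the surface nucleotidase NT5E (log2 fold change 0.53, limma adjusted p = 9e-05), and 0 lower (median 0.03).

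The electron donors of ribonucleotide reductase were 7 genes of the thioredoxin and glutaredoxin systems, with a median log2 fold change of 0.09. Of these, 1 was called higher and 0 lower. Glutaredoxin, GLRX, was at 2.82, 3.23 and 2.62 FPKM in the silenced libraries and at 1.599, 1.42 and 1.54 FPKM in the controls (log2 fold change 0.88, limma adjusted p = 0.00092). Of 4 tested nucleoside transporters, 2 were called lower, SLC29A1 (-0.59) and SLC29A4 (-0.78), and 1 higher, SLC29A2 (0.61). The equilibrative transporters ENT1 (SLC29A1) and ENT2 (SLC29A2) thus moved in opposite directions, with SLC29A1 at 12.4 ± 0.829 against 18.7 ± 0.457 FPKM and SLC29A2 at 31.4 ± 1.83 against 20.5 ± 0.872 FPKM (SD, n = 3 each).

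A further list held 3 substrate adaptors of cell cycle ubiquitin ligases. CCNF, cyclin F, which directs the breakdown of RRM2, and CDC20, which is also among the G2 and M phase genes below, were called lower, with log2 fold changes of -0.58 and -1.18 (limma adjusted p = 0.00023 and 2.9e-05). FZR1, also known as CDH1, which directs the breakdown of TK1 and RRM2 after mitosis, had a log2 fold change of -0.24 (limma adjusted p = 0.023) and was not called.

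RRM2B was set beside 24 listed p53 targets, of which 22 were tested. Of these, 4 were called higher and 1 lower, with a median of 0.12, but by adjusted p alone the split was nearly even, with 6 higher and 5 lower. The genes called higher were TP53I3 (log2 fold change 1.41), BTG2 (0.71), the cyclin-dependent kinase inhibitor CDKN1A (0.68) and SESN1 (0.60). The gene called lower was POLH (-0.51). By adjusted p alone, DDB2 (-0.38), BAX (-0.33), AEN (-0.32) and CCNG1 (-0.19) were lower, and SESN2 (0.34) and XPC (0.18) were higher. POLH and the genes lower or higher by adjusted p alone were named after their values were seen. MDM2, another p53 target, had a log2 fold change of -0.01 (95% interval -0.20 to 0.17), and it too was chosen after its value was seen. The log2 fold change of RRM2B, 0.15, was exceeded by 9 of the 22. Of all genes tested, 70.6% had a lower log2 fold change than RRM2B.

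Cell cycle markers moved with the genes called lower. Of 38 tested S phase genes, none of them among the 10, 16 were called lower and 0 higher, with a median of -0.46, and all 38 had log2 fold changes below 0 (-1.06 to -0.04). Among those with the largest changes were PRIM1 (-1.06), DSCC1 (-0.98) and BLM (-0.75). The summed FPKM of the S phase list was 540 to 553 in the silenced and 736 to 749 in the control libraries. Of 51 G2 and M phase genes, 48 were called lower, with a median of -1.08, led by CENPA (-1.45), HMMR (-1.36), MKI67 (-1.34) and CENPE (-1.34). Their summed FPKM was 1216 to 1231 in the silenced and 2292 to 2309 in the control libraries. All 4 genes called lower, RRM1 and TK1 (-0.69 each), DTYMK (-0.64) and RRM2 (-0.88), lay between the medians of these lists. That they lay below the S phase median was fixed by the call, which required a value under -0.5. The median of all 10 genes, -0.34, lay above the medians of both lists. The part of the cell cycle markers in the change of the 10 genes was not tested.

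**Figure D5:**
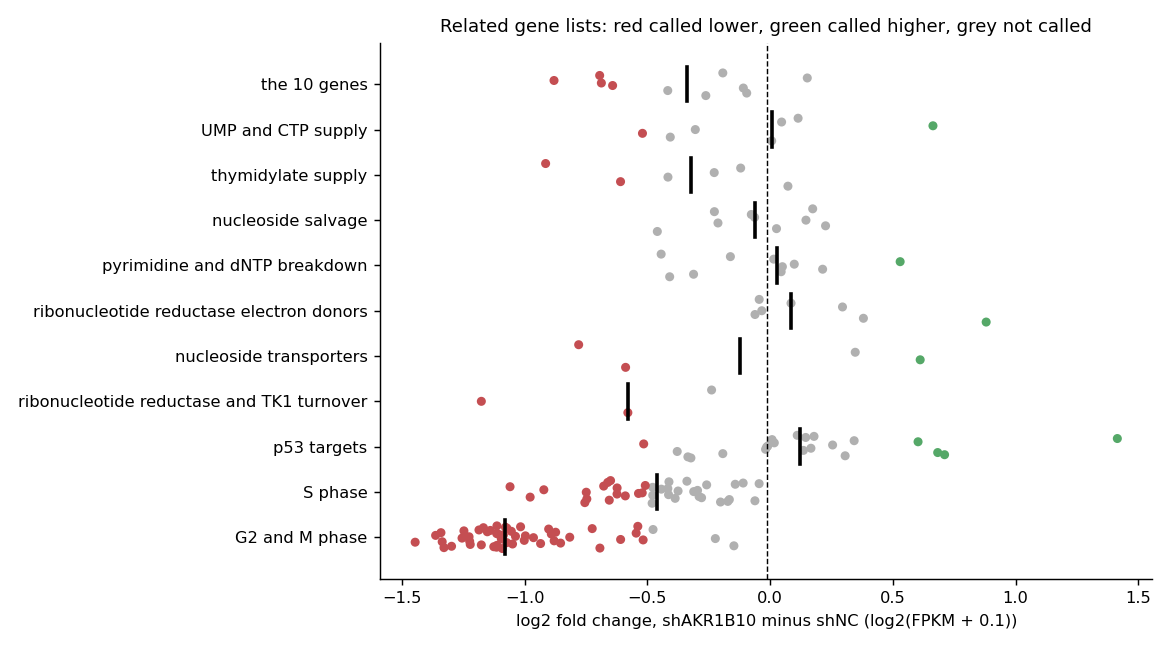
Log2 fold change (x axis, log2(FPKM + 0.1), negative is lower in BrM3-shAKR1B10) of every tested gene in the 10 genes, the 6 pathway lists and 4 related lists (red called lower, green called higher, grey not called), with each list's median (thick line) and the median of all genes tested (dashed line). The S phase and the G2 and M phase genes lie below 0, with medians of -0.46 and -1.08, and the median of the 10 genes is -0.34.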

How the data were processed

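PC9-BrM3 cells with a hairpin against AKR1B10 or a negative control hairpin were sequenced by the authors (poly-A RNA, paired-end reads, 3 libraries per group). Per the labels and methods, the authors aligned the reads with HISAT2 2.0.5 and counted them on genes with featureCounts 1.5.0-p3. The genome build and strand setting are not given in the sources used here, but all 58735 gene identifiers match GENCODE 29 (Ensembl 94), from which coordinates were taken. The authors deposited FPKM, and their own test, DESeq2 on counts, was not repeated. Multiplying FPKM by gene length gave whole reads for 100% of values (tolerance 0.01), which fixed the depth of each library.

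Log2(FPKM + 0.1) was fitted for genes whose mean reached 1 FPKM, with limma 3.58.1 (R 4.3.3, empirical Bayes with a trend, 2 groups, no covariate), with Benjamini-Hochberg adjustment over 13150 genes. A call required an adjusted p under 0.05 with a log2 fold change beyond 0.5 in either direction. Ratios were compared with exact two-sided permutation tests. Replicates were not the same library, since their counts differed by a chi-square of 2.35 to 4.97 per gene. The code was tested on simulated data. All 10 genes were named, along with AKR1B10, TYMS, CTPS2, TK2, pseudogenes and overlapping genes, and in each list the called genes, at most the 4 with the largest change. Some genes that this rule names are not reported here. The genes and lists were chosen with earlier results of these data known, and the motifs after the sequences had been read. Alternatives included other pseudocounts, filters, scalings, thresholds, voom on the recovered reads, a replicate block and each library left out. The library sizes implied by FPKM were not the plain totals of reads on genes but differed from them in opposite directions in the groups. How the authors set them is not given in the sources used here. Median-of-ratios scaling left the log2 fold changes of the 10 genes nearly unchanged (RRM2 -0.880104 before and -0.880074 after). The FPKM therefore already stood close to that scale. FPKM does not show a change in total RNA per cell.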

Additional observations from a re-analysis of the deposited data

How the results depend on the processing

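The same 4 genes (RRM1, RRM2, TK1 and DTYMK) were called lower, and 0 higher, under every alternative that kept the threshold of 0.5, leaving out each library included. With a log2 fold change above 1 required, 0 of the 10 and 0 of the pathway genes in either direction remained called, with 205 lower and 168 higher among all genes. By adjusted p alone the counts were 7 lower and 1 higher for the 10 genes, 13 and 9 for the pathway lists, and 3044 and 2548 for all genes. A pseudocount of 1 called 3 pathway genes lower and 497 of all genes higher, and a mean FPKM of at least 5 left 532 lower and 290 higher. No direction of a gene among the 10 reversed. Without length correction the RRM2 to RRM1 difference was -0.101 and that of the TK1 share -8.42 percentage points. Over the 6 fits that lacked 1 library, the RRM2B share differed by 13.8 to 14.9 points, the RRM2 to RRM1 ratio by -0.0908 to -0.0661, the CTPS1 share by 3.78 to 5.45 and the TK1 share by -3.03 to -2.62, with 4 genes lower and 0 higher throughout, 4 to 6 pathway genes lower and 4 higher, and 940 to 977 genes lower and 649 to 765 higher in all. Replicate numbers do not pair the samples (correlations of same-numbered deviations -0.0155, 0.00388 and 0.00383, none best with its own number). With the replicate block, 967 genes were called lower and 719 higher, the 4 genes stayed called, 5 pathway genes were lower and 4 higher, and the limma adjusted p of RRM2B was 0.071 and of UMPS 0.057. Over all alternatives these adjusted p-values ran from 0.013 to 0.11 and from 0.013 to 0.069. At 220 to 252 reads per library, the depth limits what can be said of DHODH.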
